A study of Bos taurus with 6 samples.

Results

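These values describe the autosomal CpGs that were sequenced far more deeply than the rest of a bovine reduced representation bisulfite sequencing (RRBS) series. A CpG was included when it lay on chromosomes 1 to 29, was covered by 5 to 500 reads in each of the 6 libraries and had a mean coverage over the 6 libraries of 50 to 500 reads. This rule kept 20408 CpGs, called the high-coverage CpGs here, of 1542060 autosomal CpGs and 1580644 CpGs in all that met the limits of 5 to 500 reads. The remaining 1521652 autosomal CpGs had a mean coverage below 50. Coverage therefore selected the CpGs and is not a result. The rule itself used no methylation value, but it was chosen with earlier results of these data known.

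The libraries came from Holstein cattle, with 2 biological replicates per cell type, each from another animal. Sperm came from commercial bull semen straws, monocytes were selected from cow blood with CD14 beads, and fibroblasts were grown in culture from ear skin of females. Sex and cell type cannot be told apart in this design, nor can culture and cell type for the fibroblasts. The sperm and fibroblast libraries were amplified by 14 PCR cycles and the monocyte libraries by 12. The total coverage per library lay between 45884839 and 78890776 reads summed over CpGs, and its median per CpG between 9 and 14. At the high-coverage CpGs the median was 102 and 85 reads for the monocyte replicates, 110 and 137 for the fibroblast replicates and 96 and 119 for the sperm replicates, so that a single percentage was far less coarse there.

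Methylation of the cytosine in a CpG is kept through cell division, and most CpGs outside CpG islands are methylated in somatic cells. Repeated DNA, such as the satellites near cattle centromeres, is commonly methylated in somatic tissues, and satellites are known to be less methylated in the male germ line of several mammals. In RRBS, the enzyme MspI cuts at CCGG, so that a repeat carrying this site yields the same fragment from each of its copies. The copies of a repeat that an assembly keeps apart can be told from each other only by the bases in which they differ.

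Sperm was poorly methylated at the high-coverage CpGs, monocytes were strongly methylated, and fibroblasts lay between them. The mean methylation was 79.0% and 78.1% for the monocyte replicates, 61.4% and 61.1% for the fibroblast replicates and 22.9% and 20.7% for the sperm replicates. The 3 cell types did not overlap, and the replicates of a cell type were at most 2.20 percentage points apart. By cell type this gave 21.8% ± 1.55 for sperm, 78.5% ± 0.631 for monocytes and 61.3% ± 0.208 for fibroblasts (SD, n = 2). The 3 cell types were much closer at the autosomal CpGs with a mean coverage below 50. There the library means were 53.7% and 53.4% for monocytes, 45.9% and 46.4% for fibroblasts and 49.9% and 49.5% for sperm. The order of the cell types also differed, since fibroblasts and not sperm had the lowest mean among the less covered CpGs.

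The shape of the distributions differed as well. Hypomethylated (below 20%), intermediate (20 to 80%) and hypermethylated (above 80%) CpGs were counted in each library. In sperm, 42.6% and 35.7% of the high-coverage CpGs were intermediate, against 5.12% and 5.36% of the less covered ones. In monocytes the intermediate share was 29.5% and 32.2%, against 10.4% and 10.8%. In fibroblasts it reached 66.4% and 66.6%, against 25.2% and 24.9%. Thus intermediate methylation was more frequent at the high-coverage CpGs in all 6 libraries. A percentage of exactly 0 or 100 was seen for 6.01% and 5.50% of the high-coverage CpGs in the sperm libraries, against 75.3% and 72.7% of the less covered ones. Few reads allow only few percentages, and the part of depth in this contrast was not tested.

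**Figure D1:**
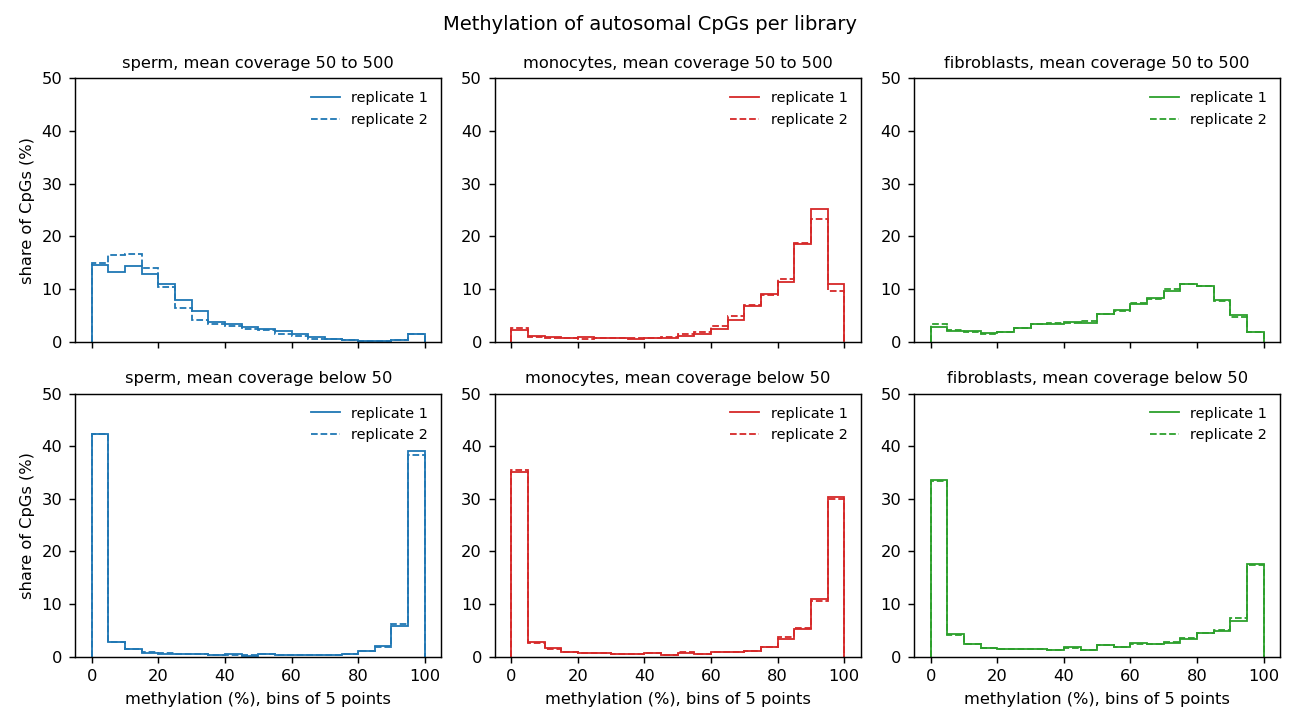
Share of CpGs (y axis, %) per bin of 5 points of methylation (x axis, %) for the 20408 high-coverage CpGs (top) and the 1521652 autosomal CpGs with a mean coverage below 50 (bottom), with solid lines for replicate 1 and dashed lines for replicate 2. At high coverage sperm piled up at low values, monocytes above 80% and fibroblasts between 20% and 80%, whereas the less covered CpGs stood mostly at both ends in every cell type.

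Replicates were close at single CpGs. The median absolute difference between the 2 libraries of a cell type was 3.59 points in sperm, 3.68 in monocytes and 4.57 in fibroblasts. A difference of 25 points or more between replicates was found at 183 high-coverage CpGs in sperm, 389 in monocytes and 440 in fibroblasts. Sperm replicate 1 was on average 2.20 points above sperm replicate 2, a shift larger than that between the monocyte (0.893 points) or the fibroblast replicates (0.294 points). Across the 20408 CpGs, Pearson's r between cell types was 0.801 for monocytes and fibroblasts, 0.409 for sperm and monocytes and 0.471 for sperm and fibroblasts. Across the less covered CpGs it was 0.850, 0.769 and 0.713 in the same order. These correlations are descriptions, since CpGs on the same fragment share reads.

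Differentially methylated CpGs (DMCs) were called for each pair of cell types with a logistic regression on the reads summed over replicates, at a Benjamini-Hochberg adjusted p below 0.01 over all 1580644 CpGs and a difference of at least 25 percentage points. This test counts reads and does not estimate the variation between animals. Monocytes were more methylated than sperm at 18313 of the 20408 high-coverage CpGs (89.7%), where 13.3% of all CpGs tested were called. They were less methylated than sperm at 49 CpGs (0.240%), with 5.48% among all CpGs. Fibroblasts were more methylated than sperm at 15966 CpGs (78.2%), against 12.1% of all CpGs. They were less methylated at 245 CpGs (1.20%), against 16.2%. The direction seen in fibroblasts over all CpGs was thus mainly a lower methylation than in sperm, and at the high-coverage CpGs mainly a higher one. Correction for the spread between replicates, pooled by coverage, left 18323 DMCs for monocytes against sperm and 16105 for fibroblasts against sperm, of 18362 (18.8% of all CpGs) and 16211 (28.3% of all CpGs) without it. With the correction, 17.7% and 22.8% of all CpGs were called.

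The somatic cell types differed from each other at fewer of these CpGs. Between them 5409 high-coverage CpGs were called (26.5%, against 17.0% of all CpGs). Monocytes were more methylated than fibroblasts at 5359 CpGs (26.3%; 13.7% of all CpGs) and less methylated at 50 (0.245%; 3.3% of all CpGs). The depth of the high-coverage CpGs entered these shares. When every CpG was thinned to 5 reads per library, DMCs between monocytes and fibroblasts fell to 268 high-coverage CpGs (1.31%), below the 4.25% of all CpGs thinned in the same way. After the same thinning the sperm comparisons still gave more calls than among all CpGs. Monocytes against sperm gave 49.2% of the high-coverage CpGs and 12.4% of all, and fibroblasts against sperm 22.6% and 14.1%.

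Without a test, the libraries were also set against each other directly. Both sperm libraries lay below all 4 somatic libraries at 18476 high-coverage CpGs (90.5%; 14.5% of all CpGs tested). Both lay above all 4 somatic libraries at 236 (1.16%; 12.3% of all CpGs tested). The median difference in summed reads was 63.2 points for monocytes against sperm, 43.2 points for fibroblasts against sperm and 14.7 points for monocytes against fibroblasts.

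Within the limits of the rule, methylation hardly followed coverage in sperm and was slightly higher at deeper CpGs in the somatic cells. From a mean coverage of 50 to 75 reads (5607 CpGs) to one of 300 to 500 reads (1113 CpGs), mean methylation was 21.5% ± 1.41 and 22.03% ± 2.05 in sperm. The corresponding means were 75.0% ± 0.773 and 80.4% ± 0.190 in monocytes, and 56.6% ± 0.129 and 66.2% ± 0.407 in fibroblasts (SD, n = 2). Just outside the lower limit, the 1767 autosomal CpGs with 45 to 50 reads averaged 23.1% for sperm, 67.4% for monocytes and 51.2% for fibroblasts. Just inside it, the 1385 CpGs with 50 to 55 reads averaged 22.9%, 75.4% and 57.1% in the same order. Above the upper limit, 3804 CpGs met the mean but had more than 500 reads in at least 1 library, and these averaged 21.9%, 80.1% and 64.8%. Sperm methylation was thus alike on both sides of the lower limit, while somatic methylation was higher just inside it than just outside.

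The high-coverage CpGs were gathered in few places. They occupied 491 of the 2529 blocks of 1 Mb that held a tested CpG, and the fullest 39 blocks held 50% of them. The 10 fullest blocks held 4989 (24.4%). The fullest block, chromosome 27 from 28000001 to 29000000 (UMD3.1, as all coordinates here), held 968 high-coverage CpGs in 133 runs. Their mean methylation was 86.7% and 85.9% for the monocyte replicates, 71.9% and 72.5% for the fibroblast replicates and 31.7% and 31.4% for the sperm replicates. The second fullest, chromosome 3 from 82000001 to 83000000, held 735 with 82.5% and 81.3% for monocytes, 63.5% and 63.3% for fibroblasts and 23.0% and 19.8% for sperm. Sperm methylation was lower at the start of chromosome 14, where the first block held 475 high-coverage CpGs with 82.9% and 81.4% for monocytes, 64.4% and 64.5% for fibroblasts and 14.0% and 14.0% for sperm. Across the 10 fullest blocks the cell types never changed order.

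Chromosomes contributed unequally. Chromosome 8 held 2470 high-coverage CpGs (12.1%) and chromosome 27 held 1812 (8.88%), although they held 2.69% and 1.63% of the autosomal CpGs tested. Chromosome 24 had the fewest, 151 CpGs. On each of the 29 autosomes both sperm libraries averaged below all 4 somatic libraries. The chromosome mean in sperm ranged from 17.7% on chromosome 24 to 38.0% on chromosome 17, whose 159 CpGs also included a small share lower in sperm than in the somatic cells of both kinds (48.4%).

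Along the chromosomes, the high-coverage CpGs did not share the crowding of CpGs towards the end of the sequence. Within 5 Mb of the last covered position lay 6.42% of them, against 25.7% of all autosomal CpGs tested. Within 5 Mb of the first covered position lay 8.93%, against 6.96%, and within 2 Mb of it 7.04%, against 3.06%. Of the 1437 high-coverage CpGs within these 2 Mb, 475 lay in the first block of chromosome 14. Cattle autosomes are acrocentric, and their sequence is usually numbered from the centromere. Both ends together held 15.3% of the high-coverage CpGs and 32.7% of all autosomal ones. Of the high-coverage CpGs, 39.0% lay within 1 kb of a CpG with more than 500 reads in a library, against 1.04% of all autosomal CpGs. Coverage selected the high-coverage CpGs, and CpGs on the same fragment share reads. The selection thus favoured this contrast, which is no separate result on location. Fewer tested CpGs lay around them, with a median of 13 within 500 bp against 17. This count leaves out CpGs with more than 500 reads in a library, so that it is no measure of CpG density.

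**Figure D2:**
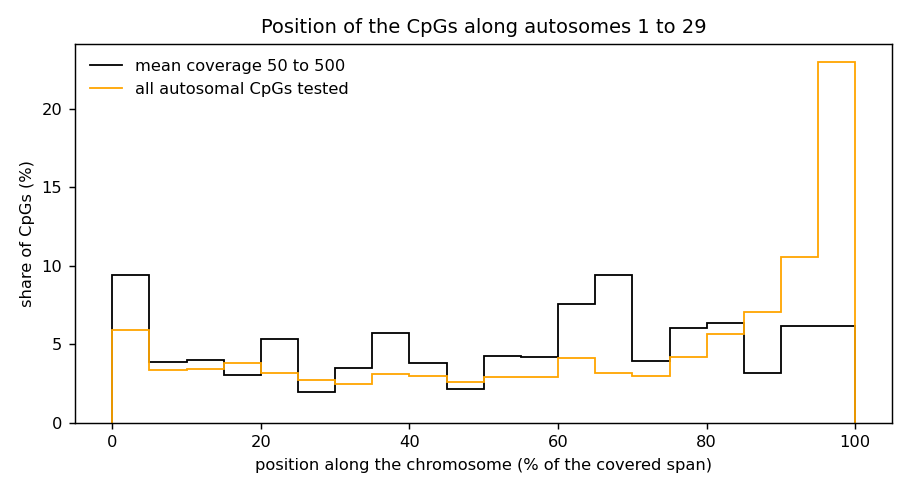
Share of CpGs (y axis, %) by position along the chromosome (x axis, % of the span from the first to the last covered CpG), summed over the 29 autosomes, for the high-coverage CpGs (black) and all autosomal CpGs tested (orange). The rise of all CpGs at the far end was not seen for the high-coverage CpGs, which had 9.40% of their number in the first 5% of the span and irregular peaks elsewhere.

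High-coverage CpGs at most 1000 bp apart were joined into runs. There were 2437 runs, of which 325 held 1 CpG and 731 held at least 10. The latter contained 12452 of the high-coverage CpGs (61.0%) and had a median span of 719 bp. Joined in the same way, 79.3% of all autosomal CpGs tested lay in runs of at least 10. Runs grow with the number of CpGs that are joined, and all autosomal CpGs were far more numerous. These shares therefore cannot show which set was the more clustered. A comparison with an equal number of tested CpGs was not made.

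Sperm methylation was much alike from run to run. Among the 731 runs of at least 10, the sperm mean was between 15% and 30% in 545, with a median of 20.7%. Monocytes had a median of 82.8% and fibroblasts of 64.8%. Both sperm libraries were below all 4 somatic libraries in 707 runs, and the fibroblast libraries were between the sperm and the monocyte libraries in 682. Neither order was counted over runs of all autosomal CpGs. At single CpGs, sperm below all 4 held for 90.5% here and for 14.5% of all CpGs tested. A second, smaller group had almost no methylation in sperm. It comprised 70 runs with a sperm mean below 5%, of which 36 had both somatic means above 50% and 21 had both below 20%.

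**Figure D3:**
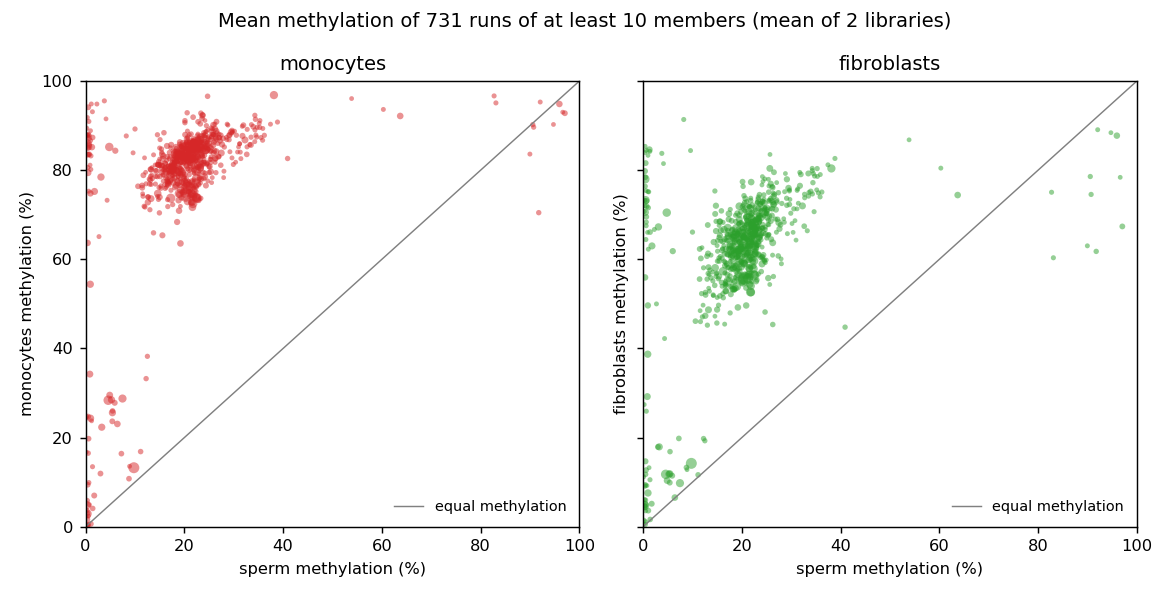
Mean methylation of each of the 731 runs of at least 10 high-coverage CpGs in sperm (x axis, %) against monocytes (left) and fibroblasts (right, y axes, %), as the mean of 2 libraries, with larger points for runs of more CpGs and a line at equal methylation. Most runs formed 1 cloud near a sperm value of 20.7%, with small groups at the left edge and at the upper right.

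Of the 5 runs with the most high-coverage CpGs, 4 followed the common pattern. The largest held 93 CpGs at chr29:19423436-19433104, and its mean was 75.9% and 76.2% for monocytes, 57.4% and 53.9% for fibroblasts and 22.2% and 19.0% for sperm. A neighbouring run of 62 CpGs at chr29:19417828-19422135 had 73.3% and 74.9% for monocytes, 55.6% and 54.5% for fibroblasts and 21.5% and 19.1% for sperm. A run of 62 CpGs at chr13:48999950-49006080 had 74.5% and 75.4% for monocytes, 56.2% and 54.8% for fibroblasts and 21.5% and 18.9% for sperm. These 3 runs, on 2 chromosomes, differed from each other by less than 3 points within each library. The run of 61 CpGs at chr3:1031780-1039122 was close to them, with 76.9% and 75.6% for monocytes, 59.2% and 52.2% for fibroblasts and 22.6% and 20.01% for sperm. The exception was the second largest run, 70 CpGs at chr3:8107591-8111848, whose mean was low in every cell type. It was 13.4% and 13.1% for monocytes, 15.6% and 12.9% for fibroblasts and 9.43% and 10.1% for sperm. Single CpGs of this run still reached 91.9% in monocytes, 86.1% in fibroblasts and 97.9% in sperm. Among runs of at least 20, the widest gap between sperm and the somatic cells was at chr26:25717519-25718587, where 22 CpGs had 84.9% and 85.5% for monocytes, 81.8% and 87.5% for fibroblasts and 1.32% and 1.27% for sperm.

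Whether the high-coverage CpGs resemble repeats was examined from their positions alone, because no repeat annotation or sequence of the UMD3.1 build was used here. Each group of 6 neighbouring tested CpGs, at most 150 bp from one to the next, was written as its 5 distances in bp, read in either direction, and called shared when the same 5 distances occurred on at least 3 chromosomes. Of the 6031 groups made up only of high-coverage CpGs, 4006 (66.4%) were shared. Of the 822039 groups made up only of other CpGs, 8.78% were shared. Short distances recur more easily in CpG-dense sequence. With groups spanning at least 60 bp, 69.4% of the high-coverage groups and 0.468% of the others were shared. The CpGs in shared groups numbered 12318 and had a mean methylation of 22.2% ± 1.72 for sperm, 81.9% ± 0.573 for monocytes and 65.9% ± 0.136 for fibroblasts. The other 8090 high-coverage CpGs had 21.4% ± 1.30, 73.4% ± 0.721 and 54.2% ± 0.317 in the same order (SD, n = 2).

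The most frequent spacing pattern was spread over most autosomes. The successive distances 7, 30, 4, 7 and 17 bp were found in 261 groups of high-coverage CpGs on 26 chromosomes, 149 times in the direction of the coordinates and 112 times in reverse. Frequent patterns overlapped it on both sides and joined into 1 series of 12 CpGs spanning 166 bp, with distances of 25, 11, 11, 13, 7, 30, 4, 7, 17, 29 and 12 bp. In all, 3618 high-coverage CpGs (17.7%) took a place in this series, on all 29 autosomes, against 0.0719% of the other autosomal CpGs. No CpG took more than 1 place. The series was built from patterns that were frequent among the high-coverage CpGs. Its higher share there was thus favoured by this choice and is no test of enrichment.

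Each place in the series had its own level of methylation. The eighth CpG was the most methylated in sperm, with 53.9% and 49.7% in the 2 libraries over 392 CpGs. Its neighbours 4 bp before and 7 bp after had 22.1% and 18.4%, and 19.1% and 14.4%. The fourth CpG formed a second peak in sperm, with 42.8% and 38.5%. No such peak was seen in monocytes, where the eighth CpG had 90.3% and 89.3% and the seventh 92.6% and 91.9%. Nor was it seen in fibroblasts, where the eighth had 83.7% and 82.9% and the seventh 83.6% and 83.5%.

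Other places were relatively low in every cell type. The tenth CpG had 75.2% and 73.4% for monocytes, 57.5% and 57.3% for fibroblasts and 10.96% and 9.47% for sperm. The first CpG was low in sperm, with 6.82% and 6.20%, and also set the somatic cells apart, with 75.3% and 72.6% in monocytes but 32.6% and 31.8% in fibroblasts. At this place the 2 somatic cell types were farther apart than at any other of the 12. Sperm replicate 1 was above replicate 2 at all 12 places.

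The profile was repeated in the single copies. In the 261 groups with the most frequent pattern, where the fourth CpG is the eighth of the series, this CpG was the highest in sperm in 261 groups by summed reads, in 260 in replicate 1 and in 259 in replicate 2. Over these copies its methylation was 55.4% ± 7.77 and 50.8% ± 7.71 in the sperm libraries (SD over 261 copies), where counting error alone gives an SD of 4.86 and 4.33. The last CpG was the lowest of the 6 in 238 copies in sperm, 252 in monocytes and 244 in fibroblasts. Its methylation over the copies was 10.5% ± 3.02 and 8.93% ± 2.96 in sperm, with an SD from counting of 3.01 and 2.51. In sperm, the SD over copies was thus little above that from counting at this CpG and farther above it at the fourth one. In the somatic cells it exceeded that from counting at the last CpG too. It was 6.43 and 6.89 in monocytes, where counting gives 4.39 and 4.601. In fibroblasts it was 7.27 and 6.44, where counting gives 4.41 and 3.84. Counting takes every read as independent, and the part of reads duplicated by PCR in these excesses was not tested. On the 13 chromosomes with at least 5 copies, the chromosome mean of the fourth CpG in sperm was between 46.7% and 56.0%.

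The same spacing was also found at CpGs that were not in the high-coverage set, with a similar profile in sperm. At the eighth place, 64 such CpGs averaged 46.7% ± 1.98 for sperm, 89.3% ± 0.701 for monocytes and 80.2% ± 0.0763 for fibroblasts (SD, n = 2). At the first place, 143 averaged 6.52% ± 0.541, 73.2% ± 2.12 and 33.4% ± 0.335 in the same order. Their median coverage was 29.5 reads at both places. The somatic cells differed more from the high-coverage CpGs at other places. At the last place, fibroblasts had 54.7% ± 2.10 and monocytes 82.5% ± 2.17, against 65.9% ± 1.35 and 89.3% ± 0.385 at high coverage, and at the fourth place fibroblasts had 68.2% ± 1.08 against 76.1% ± 0.0938. Of 51 further groups with the most frequent pattern that were not wholly of high coverage, 50 had their highest sperm methylation at the fourth CpG.

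**Figure D4:**
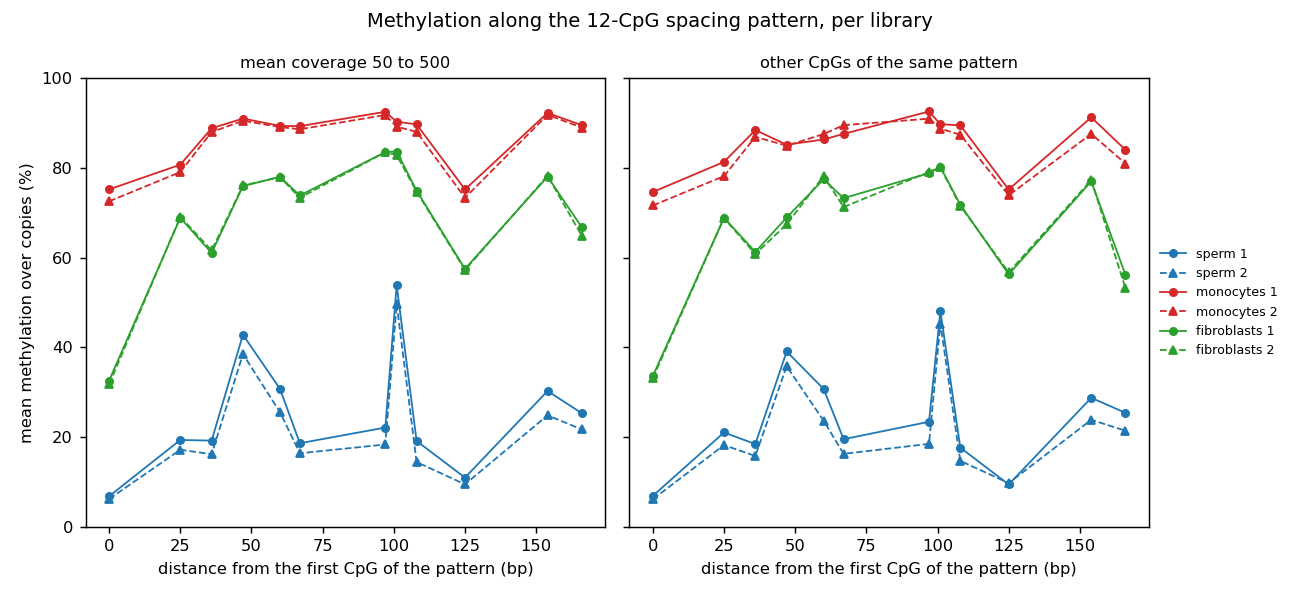
Mean methylation over copies (y axis, %) at the 12 CpGs of the spacing series, by distance from the first (x axis, bp), for each library, in high-coverage CpGs (left) and in other autosomal CpGs of the same spacing (right). Sperm peaked at the eighth CpG, 101 bp from the first, with 53.9% and 49.7% at high coverage, and the 3 cell types stayed apart at every place.

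Other spacings had other profiles. The distances 4, 45, 7, 125 and 12 bp occurred in 70 high-coverage groups on 9 chromosomes. Their first 2 CpGs had 53.4% ± 0.951 and 62.1% ± 0.747 in sperm, and the third had 13.3% ± 0.990. Monocytes had 88.5% ± 0.634, 92.7% ± 0.183 and 87.9% ± 0.153 at the same CpGs (SD, n = 2). The distances 4, 3, 13, 34 and 112 bp occurred in 49 groups on 10 chromosomes, with sperm highest at the second CpG (41.2% ± 2.20) and lowest at the fifth (12.9% ± 3.44). In this pattern fibroblasts varied more from place to place than sperm did, from 41.5% ± 2.88 at the fifth CpG to 80.0% ± 0.989 at the second. Between 600 and 2000 bp, pairs of high-coverage CpGs were most frequent about 1382 bp apart, where a window of 51 bp held 5039 pairs. The emptiest windows held 2177 from 900 to 1200 bp (at 946 bp) and 2197 from 1600 to 2400 bp (at 2004 bp). Copies of the most frequent pattern formed 78 neighbouring pairs within 5000 bp. Their median distance was 2464.5 bp, with quartiles of 1484 and 3733 bp.

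The CpGs were then divided by the difference between cell types in summed reads. Sperm was at least 25 points below both monocytes and fibroblasts at 15895 high-coverage CpGs (77.9%; 11.1% of all CpGs tested). Their means were 85.1% and 84.2% for monocytes, 68.9% and 68.7% for fibroblasts and 21.4% and 19.0% for sperm. This share was 95.1% among the CpGs of the 12-CpG series and was 74.2% among the others. At 2435 CpGs (11.9%; 2.84% of all autosomal CpGs tested) sperm was 25 points below monocytes but not below fibroblasts. Here the means were 73.0% and 71.0% for monocytes, 38.0% and 37.5% for fibroblasts and 23.7% and 22.1% for sperm. The opposite, sperm lower than fibroblasts only, was found at 83 CpGs (0.407%; 1.55% of all autosomal CpGs), with 30.1% and 32.2% for monocytes, 47.1% and 51.5% for fibroblasts and 16.4% and 12.4% for sperm.

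The minority without a difference of 25 points below either somatic cell type comprised 3 defined classes of 1087 CpGs together, and 908 CpGs (4.45%; 21.3% of all autosomal CpGs) that met no definition. Sperm could still be lower by less than this. In 865 CpGs (4.24%; 35.4% of all autosomal CpGs tested) methylation was below 20% in all 3 cell types. In 185 (0.907%; 24.3% of all autosomal CpGs) it was above 80% in all 3. In 37 (0.181%; 4.04% of all CpGs tested) sperm was at least 25 points above both somatic cell types. Uniform low and uniform high methylation, the most frequent classes among all autosomal CpGs tested, were thus rare at high coverage. None of the CpGs of the 12-CpG series was below 20% in all cell types or higher in sperm than in both.

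**Figure D5:**
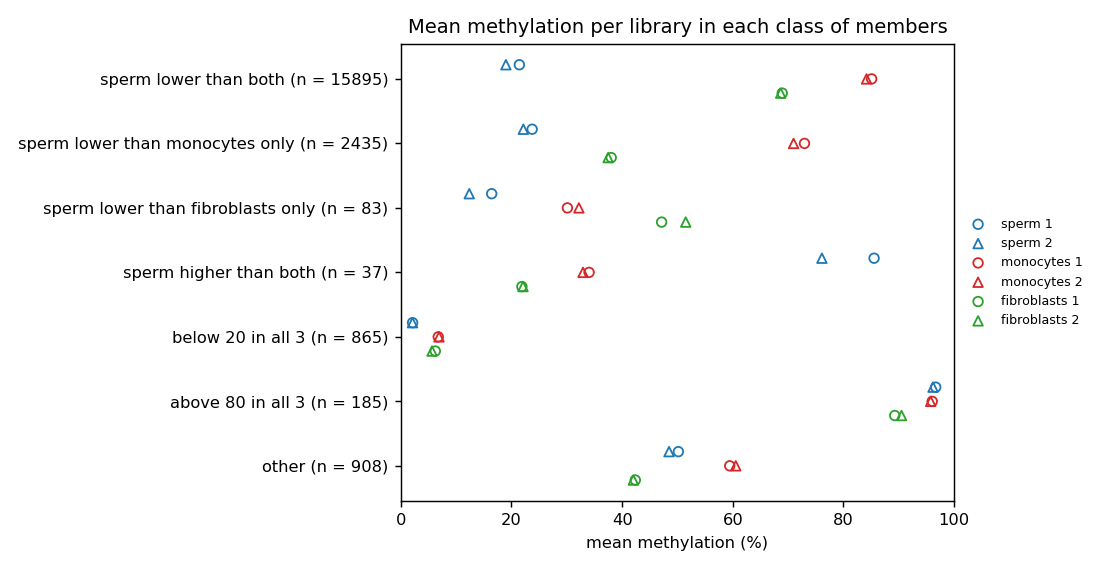
Mean methylation (x axis, %) of each class of high-coverage CpGs (y axis, with the number of CpGs) in each library, as circles for replicate 1 and triangles for replicate 2. The classes were made from these same values; the symbols show that replicates were within 5 points except in sperm for the 37 CpGs higher in sperm, at 85.5% and 76.1%.

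The 865 CpGs below 20% had means of 6.76% and 6.90% for monocytes, 6.23% and 5.64% for fibroblasts and 2.12% and 2.11% for sperm. More tested CpGs lay around them than around the high-coverage CpGs as a whole, with a median of 20 within 500 bp against 13. Of the 865, 31.7% belonged to shared spacing groups. The 2 runs with the most of them lay close together on chromosome 3. The run at chr3:8102321-8104433 held 44 such CpGs of 44, with 2.72% and 3.15% for monocytes, 6.06% and 3.40% for fibroblasts and 0.478% and 0.252% for sperm. The run at chr3:8107591-8111848 described above held 57 of its 70 CpGs in this class and also 1 CpG higher in sperm than in the somatic cells of both kinds. At chr8:70908205-70908651, all 37 CpGs were below 20%, with 6.37% and 3.34% for monocytes, 7.58% and 2.37% for fibroblasts and 0.173% and 0.448% for sperm.

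The 185 CpGs above 80% had means of 96.1% and 95.8% for monocytes, 89.3% and 90.5% for fibroblasts and 96.7% and 96.2% for sperm. Their median of the mean coverage was 60.7 reads, near the lower limit, and only 2.70% of them belonged to shared spacing groups. The largest run of this class was at chr7:4876115-4877963, with 20 of its 22 CpGs, and it was also the run of at least 20 CpGs with the lowest somatic minus sperm difference. It had 95.04% and 94.7% for monocytes, 86.5% and 89.0% for fibroblasts and 94.1% and 97.8% for sperm. The run at chr17:53142648-53143269 had 10 of 11 CpGs in the class, with 94.8% and 95.8% for monocytes, 84.5% and 93.7% for fibroblasts and 87.8% and 96.3% for sperm. The run at chr8:70969121-70970220 had 8 of 13, with 91.6% and 88.9% for monocytes, 80.5% and 76.6% for fibroblasts and 90.2% and 90.9% for sperm.

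The 37 CpGs with higher methylation in sperm lay in 19 runs, and 2.70% of them, 1 CpG, belonged to a shared spacing group. Their means were 34.0% and 32.9% for monocytes, 21.9% and 22.1% for fibroblasts and 85.5% and 76.1% for sperm. The run with the most was at chr11:107090025-107090949, where all 7 CpGs were in this class, with 20.3% and 15.2% for monocytes, 20.5% and 19.4% for fibroblasts and 77.6% and 59.7% for sperm. All 5 CpGs of the run at chr8:70935161-70935243 were in the class too, with 4.77% and 0.374% for monocytes, 2.14% and 3.64% for fibroblasts and 76.4% and 63.6% for sperm. In both runs the sperm libraries differed by more than 12 points from each other and still exceeded all somatic libraries. The third run, at chr8:71053161-71053645, had 3 of 14 CpGs in the class and means of 69.4% and 71.5% for monocytes, 62.5% and 61.1% for fibroblasts and 93.9% and 89.6% for sperm.

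The 2435 CpGs lower in sperm than in monocytes only were scattered over 1288 runs, and the 3 runs with the most of them held 1.89%. The run with the most CpGs lower in sperm than in monocytes only was at chr18:58241630-58243008, with 19 of 51 CpGs. It had 20.99% and 35.8% for monocytes, 14.1% and 9.40% for fibroblasts and 3.98% and 5.21% for sperm. The monocyte libraries of this run were far apart. The largest run on chromosome 29 followed, with 14 of its 93. At chr2:136930488-136931060, 13 of 29 CpGs were in this class, with 22.02% and 26.7% for monocytes, 6.45% and 8.73% for fibroblasts and 0.827% and 1.20% for sperm. For CpGs lower than in fibroblasts only, the run at chr3:21442794-21443925 had 6 of 12, with 10.9% and 8.97% for monocytes, 18.3% and 33.5% for fibroblasts and 0.407% and 0.945% for sperm. The run at chr12:21844325-21844415 had 6 of 10, with 25.5% and 23.9% for monocytes, 29.5% and 25.4% for fibroblasts and 0.233% and 0.278% for sperm. The run at chr25:32467737-32467884 had 3 of 15, with 18.8% and 33.3% for monocytes, 19.6% and 14.2% for fibroblasts and 6.29% and 4.66% for sperm. In the runs on chromosomes 12 and 25 the replicates of a somatic cell type were farther apart than the means of both somatic cell types.

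The 3 defined minority classes were found in 184 blocks of 1 Mb, and the 5 fullest blocks held 30.7% of them. On chromosome 3, the block from 8000001 to 9000000 had 112 of its 128 high-coverage CpGs in these classes. On chromosome 19, the block from 43000001 to 44000000 had 72 of 84, of which 68 were below 20% in all cell types. The block of chromosome 8 from 70000001 to 71000000 was the only 1 of the 5 fullest with more than 1 CpG higher in sperm, and contained all 3 classes, with 41 CpGs below 20%, 14 above 80% and 5 higher in sperm among 92. The next block on that chromosome had 13, 13 and 3 among 49. The high-coverage CpGs of the 2 blocks averaged 77.1 and 93.6 reads in sperm replicate 1 and 100.3 and 148.4 in sperm replicate 2. They averaged 88.9 and 97.0 reads in fibroblast replicate 1 and 67.6 and 69.9 in fibroblast replicate 2. A depth below that of sperm replicate 1 was thus seen in fibroblast replicate 2, the deepest library by total coverage, but not in fibroblast replicate 1.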

How the data were processed

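RRBS was performed on 2 sperm, 2 monocyte and 2 fibroblast libraries, assigned to cell types by their labels. MspI fragments of 40 to 290 bp were sequenced as 75 bp paired reads. Per the labels, the authors trimmed the reads with Trim Galore 0.3.7, mapped them to UMD3.1 with Bismark 0.14.3 and Bowtie, and used methylKit. Each deposited table holds, per CpG, the coverage as raw read counts and the methylated and unmethylated percent of these reads, each CpG once with both strands merged. Different copies of a repeat may have exchanged reads during mapping, which was not tested.

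The methylated reads were recovered as the nearest whole number to coverage times percentage, and every CpG covered by 5 to 500 reads came out within 0.11 points. Methylation per cell type is the mean and SD of the 2 libraries. DMCs were called by logistic regression on summed reads (likelihood-ratio test) over 1580644 CpGs, which was tested on simulated data. Depth is given by the coverage, and error from counting covers the sampling of reads only. Classes, runs and blocks were descriptive and had no test. The regions named were the 5 runs with the most CpGs, the 3 runs with the most CpGs of each class that was not below both somatic cell types, and the runs of at least 20 with the highest and the lowest somatic minus sperm difference. The CpGs, classes and alternatives were chosen with earlier results of these data known, and the spacing patterns and 1 Mb blocks after seeing the positions. Gene and repeat annotation and sequence of UMD3.1 were not used here. The software was Python 3.11.15, matplotlib 3.10.9, numba 0.67.0, numpy 2.4.6, pandas 2.3.3 and scipy 1.17.1.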

Additional observations from a re-analysis of the deposited data

How the results depend on the processing

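Of 89 alternative values, 69 stayed close to the reported one, within 1 SD of the replicates for means and within 1.5 times for counts and shares. They include the means without 1 library, which lie within 1 SD by construction. For the means, sperm stayed lowest and monocytes highest under each alternative. Keeping the first CpG per kb (2874 CpGs) moved the means to 27.1% for sperm, 80.8% for monocytes and 60.05% for fibroblasts. A mean coverage of 100 to 500 moved monocytes to 80.6% and fibroblasts to 64.2%, weighting by coverage moved them to 79.4% and 63.2%, and at least 20 reads in every library moved fibroblasts to 61.9%. With 50 points the share below both somatic cell types in sperm was 34.7% (7.14% of all CpGs). The DMCs between fibroblasts and sperm were then 7268 (35.6%, against 16.4% of all CpGs). Those between monocytes and fibroblasts were 468 (2.29%), below the 7.99% of all CpGs. With 10 points the latter were 12084 (59.2%, against 19.3% of all CpGs). Thinning to 5 reads left 10032 DMCs for monocytes against sperm, 4615 for fibroblasts against sperm and 268 for monocytes against fibroblasts. The last is 1.31% of the high-coverage CpGs against 4.25% of all, whereas without thinning their share was the higher one, at 26.5% against 17.0%. The share in runs of at least 10 was 37.5% when CpGs were joined within 200 bp and 91.6% within 5000 bp, and 24.3% lay in runs of at least 20. Within 2 Mb and 10 Mb of the ends lay 8.86% and 29.5% (18.0% and 47.7% of all autosomal CpGs). Leaving out runs of at least 100 CpGs was not run, because the largest run held 93. No positions were 1 bp apart, so that counting such pairs once left the value as it was. The alternatives on spacing patterns were chosen after seeing the data, and gave 50.3% to 75.2% of CpGs in shared groups, against 60.4% as reported.

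Leaving out 1 library at a time gave 20.7% to 22.9% in sperm, 78.1% to 79.0% in monocytes and 61.1% to 61.4% in fibroblasts. These means are those of the library that remained, and so only repeat the replicate values. The share of CpGs lower in sperm than in both was 76.2% to 78.5%. Without 1 library of the pair, DMCs were 18173 to 18324 for monocytes against sperm (89.0% to 89.8%, against 16.5% to 17.8% of all CpGs). For fibroblasts against sperm they were 15740 to 16224 (77.1% to 79.5%, against 23.1% to 26.7%). For monocytes against fibroblasts they were 4941 to 5529 (24.2% to 27.1%, against 11.2% to 15.0%). The fourth CpG of the most frequent pattern was the highest in sperm in 259 to 260 of 261 copies, which are again the values of the single replicates.

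With the replicate number as a block, a Cochran-Mantel-Haenszel test called 18354, 16201 and 5358 of the high-coverage CpGs in the same order. These were 89.9%, 79.4% and 26.3% of them, against 17.9%, 26.4% and 15.3% of all CpGs. The numbers pair no animals, and the deviations of same-numbered libraries correlated at 0.00421, 0.00159 and -0.00325 over all CpGs.

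Each cell type has 2 animals, so that variation between animals is poorly known.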

Other observations

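CpGs outside the autosomes that met the same coverage limits had similar values. On the X chromosome, 1160 CpGs averaged 82.3% and 81.1% for the monocyte replicates, 63.0% and 63.2% for the fibroblast replicates and 19.9% and 18.1% for the sperm replicates. Sperm was at least 25 points below both somatic cell types at 80.7% of them. Another 1022 CpGs lay on 128 sequences that were neither autosomes nor the X. These averaged 81.1% and 80.0% for monocytes, 65.1% and 64.8% for fibroblasts and 28.1% and 26.6% for sperm, and 74.3% were at least 25 points lower in sperm than in both. Sperm carries 1 X or 1 Y per cell while the somatic donors were females, so that sex and cell type cannot be told apart on the X.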
